A study of Mus musculus with 24 samples.

Results

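The matrix metalloprotease genes (Mmp), the ADAMTS metalloprotease genes (Adamts) and the genes of their tissue inhibitors (Timp) were followed in mouse fat by RNA sequencing. They were chosen by name alone, as protein-coding genes of the deposited table with a symbol of 1 of these 3 families, which gave 44 genes (21 Mmp, 19 Adamts and 4 Timp) of 54532 genes in the table, 22046 of them protein coding. 1 other matching symbol is no protein-coding entry there and was not counted. The samples were inguinal (iWAT) and epididymal (eWAT) white fat of C57BL6 mice given a viral vector (AAV, adeno-associated virus) that encodes irisin, the secreted part of FNDC5, or AAV-GFP (green fluorescent protein) as the control. Chow or high-fat food (HFD) was fed for 18 weeks. The 8 groups of 3 libraries are GFP on chow, GFP on HFD, irisin on chow and irisin on HFD, each in iWAT and in eWAT, and all mice therefore carried an AAV. Age, sex, dose, serotype, promoter of the vector and the cells it reached were not found in the labels, nor was it stated there that the 3 libraries of each group are from separate mice. P-values therefore measure the spread between these libraries, which may be technical.

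Matrix metalloproteases are zinc enzymes that are made as inactive proenzymes and, once activated, cut collagens, laminins, fibronectin and other proteins outside the cell. ADAMTS proteases carry thrombospondin repeats, and their substrates include procollagens and proteoglycans such as aggrecan and versican. The 4 TIMP proteins bind the active site of metalloproteases, and TIMP2 also takes part in the activation of pro-MMP2 at the cell surface by MMP14. In fat, matrix turnover accompanies the growth of adipocytes and the formation of new ones, and stromal cells, macrophages, mesothelium and adipocytes differ in which of these genes they express.

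Levels are given in FPKM, fragments per kilobase of gene, scaled to a size set for each library, which allow comparison between genes of different length. The size implied by the values was 0.912 to 1.15 times the library's reads assigned to genes. The libraries hold 14.1 to 19.7 M reads assigned to genes (median 16.4 M), and 26.7 to 39.3 reads made up 1 FPKM of a 2000-base gene. A count of 0 allows up to 3 reads, or 0.0763 to 0.112 FPKM in such a gene, counting error only. The depot labels matched their marker genes in all 24 libraries: Tbx15, a transcription factor of subcutaneous fat, was at 2.88 to 14.2 FPKM in iWAT and at most 0.0903 in eWAT, while Wt1, which marks visceral mesothelium and progenitors, was at 1.20 to 11.9 in eWAT and at most 0.0201 in iWAT. Adipoq, which adipocytes make, was at 615 to 2284 FPKM throughout. Libraries are named here by group and replicate number, and 6 stood apart by marker genes of other cell types. Skeletal muscle markers summed to 4587 FPKM in iWAT irisin chow 3 and B cell markers to 527 in iWAT GFP HFD 1 and 143 in eWAT GFP chow 1. Epididymis markers summed to 4272 in eWAT GFP HFD 3 and to at most 0.879 in the other 23 libraries. The library iWAT GFP chow 3 had macrophage markers at 248 FPKM, against 1599 and 1657 in the other GFP chow libraries of iWAT. The library eWAT irisin HFD 2 had them at 1248, against 3599 and 3779 in the other irisin HFD libraries of eWAT. For the 2 libraries with low macrophage markers, the main diet differences in the groups concerned are given with and without them. These 2 were singled out after the values were seen, since their markers lay nearer to the other diet group. Leaving them out therefore favours larger diet differences and smaller SE. Values and adjusted p without them are descriptions only, and the fits with all libraries are the tests. In whole tissue, fewer cells of a type and less RNA per cell cannot be told apart.

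Of the 44 genes, 24 had a mean of at least 1 FPKM over all libraries and 14 a mean of at least 10. The inhibitor Timp2 was the most abundant at a mean of 248 FPKM, followed by Mmp2 at 71.8, Timp4 at 42.2, Adamts5 at 36.1 and Mmp3 at 30.2. The next were Adamts2 at 27.3, Mmp14 at 26.5, Mmp19 at 21.6, Timp3 at 19.5 and Mmp28 at 14.1, with Mmp23 and Adamts10 both at 13.0 just outside these 10. At the other end 12 genes stayed under 0.5 FPKM in every library. Mmp1b, Mmp20 and Mmp21 had 1, 2 and 7 reads in all 24 libraries together, and no gene was at 0 in all of them. A gene was tested where at least 3 of the libraries compared reached 0.5 FPKM. This left 30 genes (12 Mmp, 14 Adamts and all 4 Timp) in eWAT and across depots and 27 in iWAT, where Mmp13, Adamts3 and Adamts19 did not pass. The 14 genes tested nowhere are Mmp1b, Mmp7, Mmp8, Mmp10, Mmp16, Mmp20, Mmp21, Mmp24, Mmp25, Adamts8, Adamts13, Adamts17, Adamts18 and Adamts20, and the highest mean among them was 0.443 FPKM, that of Mmp7.

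3 of the 4 inhibitor genes, Timp1, Timp3 and Timp4, lie within synapsin genes (Syn1, Syn3 and Syn2) on the opposite strand, a nested arrangement known for this family. Timp2 overlaps Cep295nl on the same strand, while 23 of the 44 genes overlap no other gene of the table. The labels do not state whether the libraries keep the strand, so reads from these overlapping partners could not be told apart. 8 of the Mmp genes form a cluster on chromosome 9, from Mmp13 (start 7272514) through Mmp1b, Mmp3, Mmp10, Mmp8, Mmp27 and Mmp20 to Mmp7 (end 7699585), over 427 kb, in the coordinates of the deposited table. Its neighbours differed widely in level, with Mmp3 at up to 128 FPKM in a library and the adjoining Mmp10 at 0 reads in 20 of 24 libraries.

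The sequences before the annotated start are shown for the 4 genes of this cluster with the highest mean level, because close neighbours differed widely in level here. The mean of Mmp7 rests on 1 library. Each run is 110 bases of RefSeq sequence (GRCm38.p6), plus strand, 5′ to 3′, and ends at the base before the start. Capitals mark matches to TGANTCA, a pattern that includes the AP-1 site, and to TATAAA, the letters of the TATA box.
Mmp13, chr9:7272404-7272513: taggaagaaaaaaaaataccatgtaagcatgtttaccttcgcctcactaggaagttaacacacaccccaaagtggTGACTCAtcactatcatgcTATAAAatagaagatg
Mmp3, chr9:7445712-7445821: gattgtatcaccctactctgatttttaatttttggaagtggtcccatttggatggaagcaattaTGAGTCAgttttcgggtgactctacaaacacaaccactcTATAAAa
Mmp27, chr9:7571286-7571395: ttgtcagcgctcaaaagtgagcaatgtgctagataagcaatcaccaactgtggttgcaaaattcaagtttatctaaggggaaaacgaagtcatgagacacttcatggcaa
Mmp7, chr9:7691980-7692089: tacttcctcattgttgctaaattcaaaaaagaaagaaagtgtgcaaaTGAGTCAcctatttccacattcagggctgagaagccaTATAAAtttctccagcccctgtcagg
AP-1 is a dimer of FOS and JUN proteins and the textbook regulator of the stromelysin and collagenase promoters. Both strands of the 250 bases before each start were searched, and promoters of 30 of the 44 genes were in the RefSeq table. TGANTCA was found in 6 of the 30 genes (Mmp13, Mmp1b, Mmp3, Mmp10, Mmp20 and Mmp7), all in the cluster on chromosome 9, and in 6.75% of 32851 promoters of the table. TATAAA was found in 8 of the 30 genes, in those 6 and in Mmp21 and Adamts1, and in 12.4% of all promoters. Neither was found in Mmp27 or Mmp8, the other 2 genes of the cluster. A match is a description of these letters and no evidence of binding, and the genes that share them did not share a level, since Mmp1b and Mmp20 were almost unread and Mmp3 was abundant.

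**Figure D1:**
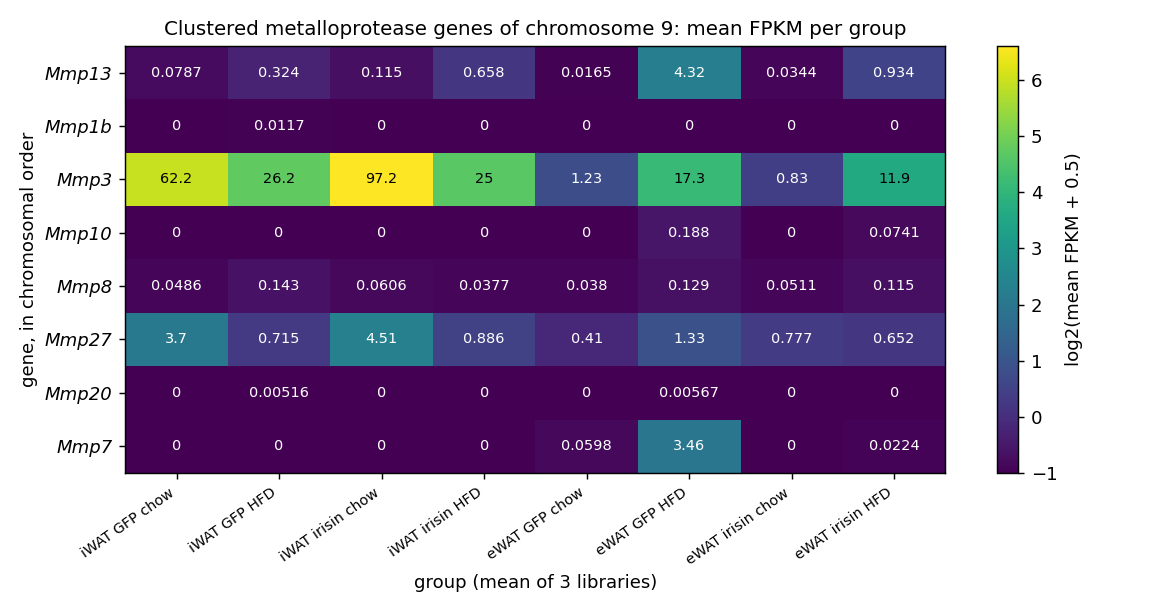
Mean FPKM (printed in each cell, n = 3) of the 8 clustered Mmp genes on chromosome 9, in chromosomal order from top to bottom, in the 8 groups; colour shows log2(mean FPKM + 0.5). Mmp3 is the brightest row, with 97.2 in iWAT irisin chow and 0.830 in eWAT irisin chow, and the Mmp7 value of 3.46 in eWAT GFP HFD comes from 1 library.

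Diet differences were found in both depots. Mmp3, Mmp2, Mmp14, Adamts14 and Timp1 were called higher on HFD in eWAT of GFP mice and lower in iWAT of irisin mice. Mmp27 was called higher in eWAT of GFP mice and lower in iWAT of both vector groups. Within the same vector group, only Mmp27 (GFP mice) and Mmp3 (irisin mice) were called in opposite directions. The share of all genes called in opposite directions was not computed, so this is not read as particular to these families. In eWAT of GFP mice, 15 of 30 tested genes differed between HFD and chow (limma, adjusted p under 0.05), against 26.5% of 16274 genes tested: 9 were higher on HFD, among them Mmp3, Mmp13, Timp1 and Mmp2 (background for higher, 14.7%), and 6 were lower, led by Timp4 and Mmp9 (background 11.8%). In eWAT of irisin mice the count was 4 of 30, against 17.4% of all genes, with Mmp3 higher (background 9.47%) and Mmp9, Adamts16 and Mmp23 lower (background 7.93%). In iWAT of GFP mice it was 2 of 27, against 2.37% of 16125 genes, with none higher (background 1.44%) and Mmp27 and Adamts15 lower (background 0.924%). In iWAT of irisin mice it was 11 of 27, against 9.01%, with Adamts9 higher (background 4.82%) and 10 genes lower (background 4.19%). The median change of the tested genes, on the log2 scale, was 0.06 and 0.07 in eWAT and -0.30 and -0.33 in iWAT (GFP and irisin mice), against medians between -0.02 and 0.00 over all genes. The median size of change, whatever its sign, was 0.75 in eWAT of GFP mice against 0.35 over all genes, and 0.64 in iWAT of irisin mice against 0.33. Diet groups did not overlap in eWAT for 17 of 30 members in GFP and 7 in irisin mice, beside 7153 and 5937 of 16274 genes. In iWAT it was 7 and 14 of 27 members, beside 3758 and 5975 of 16125 genes.

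Those counts rest on few libraries. The share of all genes called is not given for the refits here and further below. A changed count is therefore not read as particular to these families. Without eWAT irisin HFD 2 the count in eWAT of irisin mice was 11 (Mmp2, Mmp3, Mmp11, Mmp13, Mmp14, Adamts2, Adamts15 and Timp1 higher and Mmp9, Adamts16 and Timp4 lower), and it was 2 without eWAT irisin chow 1 or 3. Without iWAT GFP chow 3 the count in iWAT of GFP mice was 4, with Timp2 (-2.04 ± 0.30), Mmp2 (-1.63 ± 0.32) and Adamts1 (-1.27 ± 0.20) passing as lower beside Mmp27. It was 0 without iWAT GFP chow 1 or 2, iWAT GFP HFD 2 or 3, or irisin chow 1 in the shared fit, and 1 without any of 5 other libraries. In iWAT of irisin mice the 11 calls became 2, 0 and 1 without irisin chow 1, 2 and 3, and 2 and 0 without irisin HFD 2 and 3. Leaving out the 4 libraries rich in muscle, B cell or epididymis markers gave 11, 3, 0 and 4 calls in eWAT of GFP mice, eWAT of irisin mice, iWAT of GFP mice and iWAT of irisin mice. Over all 10 comparisons with calls there were 70 calls, and 28 of them held in every alternative setting run and every fit that left out a library. Another 2, both of Adamts19, held in the settings in which the gene passed the filter on low values, and none of the 70 changed sign. Of the diet calls in iWAT, 0 of 2 in GFP mice and 0 of 11 in irisin mice held in all of these refits. In eWAT it was 8 of 15 in GFP mice and 2 of 4 in irisin mice. Every fall or rise named below as called in iWAT thus lost its call in some refit.

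**Figure D2:**
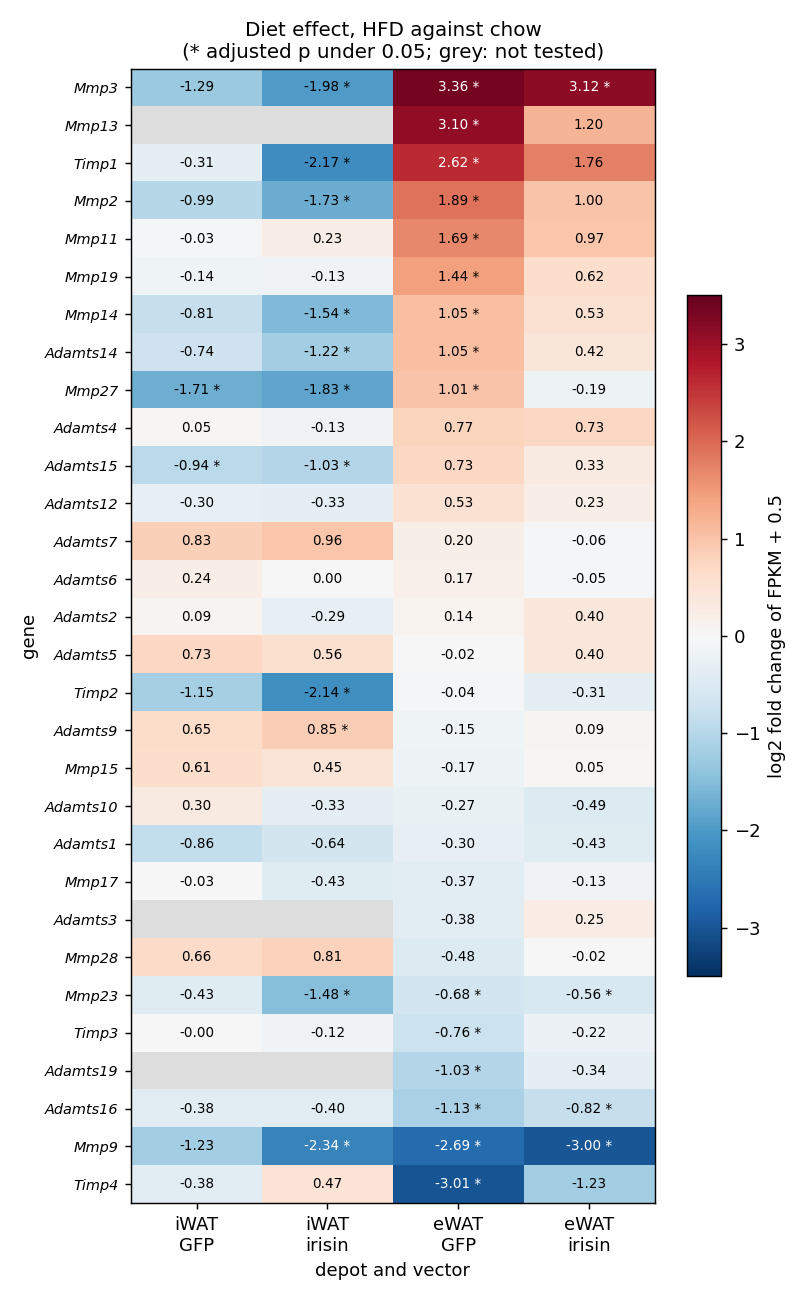
Log2 fold change of FPKM + 0.5, HFD against chow, for the 30 tested genes (rows) in each depot and vector (columns); red is higher on HFD, blue lower, and an asterisk marks an adjusted p under 0.05. Mmp3, Timp1, Mmp2 and Mmp14 are red in both eWAT columns and blue in both iWAT columns, and Mmp9 is blue in all 4.

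The 2 gelatinase genes, Mmp2 and Mmp9, whose enzymes cut denatured collagen and the type IV collagen of basement membranes, differed in pattern. Mmp2 in eWAT was at 21.1, 15.3 and 21.7 FPKM in the 3 GFP chow libraries and 83.2, 66.9 and 67.4 in the GFP HFD libraries. In irisin mice it was at 18.3, 24.3 and 25.1 on chow and 75.8, 18.8 and 64.2 on HFD. The GFP groups did not overlap, and the 1 low HFD library of irisin mice, eWAT irisin HFD 2, lay within the chow range. Mmp2 rose by 1.89 ± 0.41 (log2, SE) in GFP mice (adjusted p = 0.00769) and its difference in irisin mice was 1.0 ± 0.41 (adjusted p = 0.118), or 1.62 ± 0.19 without eWAT irisin HFD 2 (adjusted p = 0.000268). In iWAT it stood at 159, 135 and 38.8 in GFP chow, 33.1, 69.8 and 45.3 in GFP HFD, 186, 220.0 and 159 in irisin chow and 80.2, 46.9 and 46.5 in irisin HFD. There all 3 irisin chow libraries lay above all HFD libraries, while 1 of the 3 GFP chow libraries, iWAT GFP chow 3, was among the HFD values. Mmp2 fell by 1.73 ± 0.47 in irisin mice (adjusted p = 0.0452), and in GFP mice the difference was -0.99 ± 0.47 (adjusted p = 0.285), or -1.63 ± 0.32 without iWAT GFP chow 3 (adjusted p = 0.0290).

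Mmp9 had its lower group means on HFD in both depots and for both vectors. In eWAT it was at 15.0, 4.83 and 8.48 FPKM in GFP chow and 0.705, 1.54 and 0.616 in GFP HFD, and at 18.5, 10.4 and 7.61 in irisin chow and 0.834, 1.58 and 0.667 in irisin HFD. Every eWAT chow library was above every eWAT HFD library. Mmp9 fell by 2.69 ± 0.42 in GFP mice (adjusted p = 0.00194) and fell by 3.0 ± 0.42 in irisin mice (adjusted p = 0.00235), and both calls held in every alternative run. In iWAT the values were 10.4, 7.55 and 3.07 in GFP chow, 2.13, 3.68 and 1.73 in GFP HFD, 16.6, 9.04 and 11.4 in irisin chow and 5.07, 1.5 and 0.835 in irisin HFD. It fell by 2.34 ± 0.53 there in irisin mice (adjusted p = 0.0234), and the difference in GFP mice, whose groups overlapped, was -1.23 ± 0.53 (adjusted p = 0.237), or -1.69 ± 0.52 without iWAT GFP chow 3 (adjusted p = 0.121). Neutrophils, which store MMP9 protein in granules, had low marker sums: 2.99 to 6.24 FPKM over 8 markers in the eWAT chow groups and 10.9 to 26.1 in the eWAT HFD groups. Only 4 of the 8 were tested in eWAT, with 1 called higher and 1 called lower on HFD for each vector and medians of -0.32 in GFP mice and -0.99 in irisin mice. The part of these cells in the Mmp9 values was not tested.

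Mmp3, or stromelysin 1, which cuts proteoglycans, fibronectin and laminin and activates other proMMPs, ran from 0.360 to 128 FPKM over the 24 libraries. In iWAT it was at 83.3, 75.1 and 28.1 FPKM in GFP chow and 13.7, 46.9 and 18.1 in GFP HFD, and at 87.1, 128 and 76.6 in irisin chow and 37.6, 18.9 and 18.5 in irisin HFD. In eWAT it was at 1.5, 0.601 and 1.59 in GFP chow, 20.8, 20.8 and 10.5 in GFP HFD, 0.700, 0.360 and 1.43 in irisin chow and 15.8, 4.59 and 15.3 in irisin HFD. All 6 eWAT chow libraries were under 2 FPKM and all 6 eWAT HFD libraries above 4, whereas the highest value of all, 128, was that of an irisin chow library of iWAT. Mmp3 rose by 3.36 ± 0.48 in eWAT of GFP mice (adjusted p = 0.00141) and rose by 3.12 ± 0.48 in eWAT of irisin mice (adjusted p = 0.00328). In iWAT it fell by 1.98 ± 0.51 in irisin mice (adjusted p = 0.0367), and its difference in GFP mice was -1.29 ± 0.51 (adjusted p = 0.197), or -1.78 ± 0.48 without iWAT GFP chow 3 (adjusted p = 0.0791). The 2 rises in eWAT held in every alternative and in every fit that left out a library.

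Mmp13, the interstitial collagenase of rodents, was nearly unread in eWAT on chow. It had 0, 1 and 1 reads in eWAT GFP chow and 1, 4 and 0 in irisin chow, against 222, 85 and 289 in GFP HFD (5.06, 1.86 and 6.05 FPKM) and 47, 2 and 77 in irisin HFD. Every GFP HFD library was above every chow library, and eWAT irisin HFD 2 was again at the chow level. The fitted change was 3.10 ± 0.48 in GFP mice (adjusted p = 0.00189) and 1.20 ± 0.48 in irisin mice (adjusted p = 0.111), or 1.77 ± 0.39 without that library (adjusted p = 0.00849). With so few reads on chow the size of the first depends on the pseudocount, and it was 2.29 with a pseudocount of 1 and 5.10 with 0.1. In iWAT it had 2 to 8 reads on chow and 9 to 66 on HFD and was not tested within that depot.

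Mmp27, a little-studied member next to Mmp8, was at 5.02, 4.47 and 1.60 FPKM in iWAT GFP chow and 0.368, 1.08 and 0.699 in GFP HFD, and at 4.44, 5.60 and 3.49 in irisin chow and 0.833, 0.916 and 0.908 in irisin HFD. Chow libraries lay above HFD libraries for both vectors. It fell by 1.71 ± 0.35 in GFP mice (adjusted p = 0.0306) and fell by 1.83 ± 0.35 in irisin mice (adjusted p = 0.0124). In eWAT it was at 0.567, 0.392 and 0.271 in GFP chow, 1.24, 1.69 and 1.06 in GFP HFD, 0.815, 1.05 and 0.467 in irisin chow and 1.01, 0.228 and 0.722 in irisin HFD. It rose by 1.01 ± 0.29 there in GFP mice (adjusted p = 0.0249), and in irisin mice, where the groups overlapped, the difference was -0.19 ± 0.29 (adjusted p = 0.695).

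3 further genes of the cluster were too low to test. Mmp10, stromelysin 2, had 2, 4 and 11 reads in eWAT GFP HFD and 6 in eWAT irisin HFD 3, and 0 in the other 20 libraries. Mmp7, matrilysin, which epithelia make, had 195 reads in eWAT GFP HFD 3 and at most 3 in every other library. That is the library with epididymis markers at 4272 FPKM, and the part of that tissue in the Mmp7 reads was not tested. Mmp8, the neutrophil collagenase, had 0 to 16 reads, and its highest count was in iWAT GFP HFD 1, which also had the highest neutrophil marker sum, 49.8 FPKM. Mmp25, a membrane protease of leukocytes on chromosome 17, was highest in that library too, with 141 reads against 3 to 39 in the others.

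**Figure D3:**
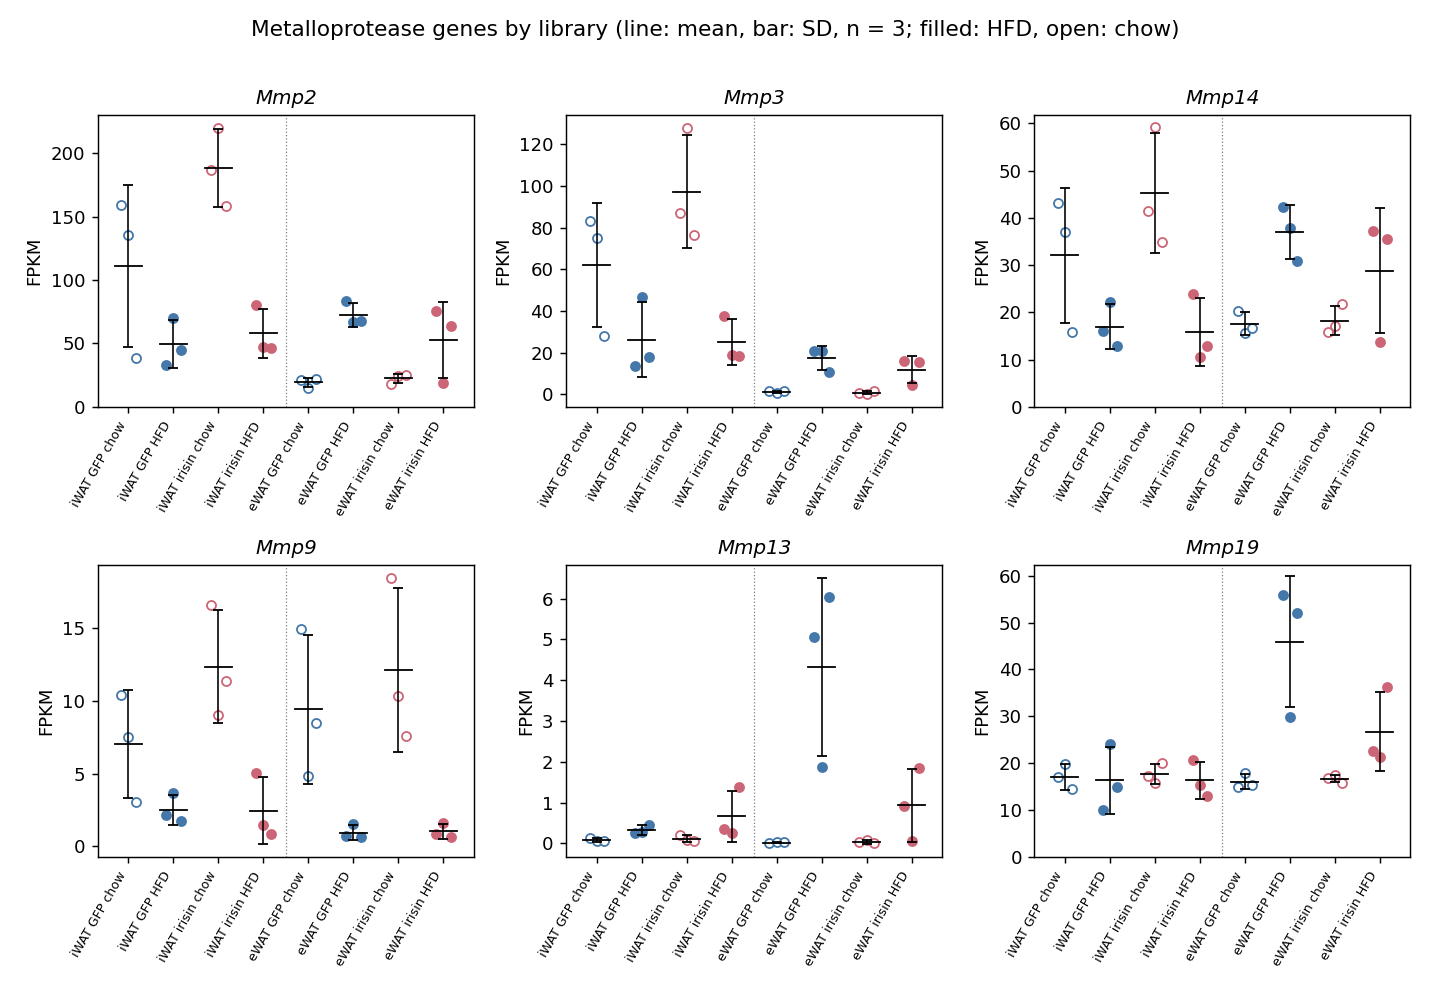
FPKM of 6 Mmp genes in each of the 24 libraries (points, open for chow and filled for HFD), with the mean (line) and SD (bar) of each group of 3; a dotted line separates iWAT from eWAT. The means of Mmp2, Mmp3 and Mmp14 are higher on chow in iWAT and higher on HFD in eWAT, with 1 low GFP chow library in iWAT and 1 low irisin HFD library in eWAT.

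Among the membrane-bound enzymes, Mmp14, the collagenase on the cell surface that activates proMMP2, had a pattern like that of Mmp2. It was at 20.3, 15.7 and 16.6 FPKM in eWAT GFP chow and 42.4, 37.9 and 30.9 in GFP HFD, and at 15.9, 17.2 and 21.7 in irisin chow and 37.3, 13.7 and 35.5 in irisin HFD. In iWAT it was at 43.2, 37.1 and 15.8 in GFP chow, 16.0, 22.1 and 12.8 in GFP HFD, 41.4, 59.3 and 34.9 in irisin chow and 23.9, 10.6 and 13.0 in irisin HFD. The pair of libraries that stood apart for Mmp2, iWAT GFP chow 3 and eWAT irisin HFD 2, were the low ones here too. Mmp14 rose by 1.05 ± 0.32 in eWAT of GFP mice (adjusted p = 0.0318) and fell by 1.54 ± 0.40 in iWAT of irisin mice (adjusted p = 0.0379). Its differences in eWAT of irisin mice and iWAT of GFP mice were 0.53 ± 0.32 and -0.81 ± 0.40 (adjusted p = 0.275 and 0.296). Without those libraries they were 0.99 ± 0.17 and -1.25 ± 0.35 (adjusted p = 0.00242 and 0.0860).

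Mmp23, a membrane-anchored protease that lacks the haemopexin domain, was lower on HFD. In eWAT it was at 20.9, 14.9 and 25.3 FPKM in GFP chow, 12.1, 11.9 and 12.7 in GFP HFD, 19.7, 18.5 and 23.1 in irisin chow and 15.3, 12.1 and 13.6 in irisin HFD. It fell by 0.68 ± 0.17 in GFP mice (adjusted p = 0.0158) and fell by 0.56 ± 0.17 in irisin mice (adjusted p = 0.0468). In iWAT it fell by 1.48 ± 0.41 in irisin mice (adjusted p = 0.0484), from 14.1, 22.5 and 13.4 to 6.64, 3.94 and 6.22, and the difference in GFP mice was -0.43 ± 0.41 (adjusted p = 0.613), or -1.01 ± 0.26 without iWAT GFP chow 3 (adjusted p = 0.0691). Without eWAT irisin HFD 2 the eWAT difference of irisin mice was -0.48 ± 0.19 (adjusted p = 0.0915). The 2 other membrane-type genes that were tested, Mmp15 and Mmp17, were called in no diet comparison.

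Mmp11 and Mmp19 are secreted enzymes, Mmp11 also known as stromelysin 3 and typical of fibroblasts in remodelling tissue. Mmp19 in eWAT was at 14.9, 18.0 and 15.3 FPKM in GFP chow and 55.8, 29.9 and 51.9 in GFP HFD, and at 16.9, 17.4 and 15.8 in irisin chow and 22.7, 21.2 and 36.3 in irisin HFD. HFD libraries lay above chow libraries for both vectors, and Mmp19 rose by 1.44 ± 0.24 in GFP mice (adjusted p = 0.00248) while the difference in irisin mice was 0.62 ± 0.24 (adjusted p = 0.0994). In iWAT all groups lay between 9 and 25 FPKM, with differences of -0.14 ± 0.28 in GFP mice and -0.13 ± 0.28 in irisin mice. Mmp11 was at 5.03, 3.14 and 3.88 in eWAT GFP chow and 13.3, 18.1 and 11.1 in GFP HFD and rose by 1.69 ± 0.40 (adjusted p = 0.0110). In irisin mice it was at 5.42, 4.98 and 4.55 and 15.1, 4.27 and 15.9, a difference of 0.97 ± 0.40 (adjusted p = 0.118), or 1.55 ± 0.21 without eWAT irisin HFD 2 (adjusted p = 0.000673). Mmp28, or epilysin, the last of the 10 most abundant genes, was at group means of 10.1 to 19.7 FPKM and was called in no diet comparison.

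Of the ADAMTS genes, the procollagen N-proteinases Adamts2, Adamts3 and Adamts14, which remove the amino-terminal propeptide of fibrillar collagens, did not move alike. Adamts14 was at 2.17, 1.37 and 0.967 FPKM in eWAT GFP chow and 3.98, 3.31 and 3.28 in GFP HFD. In iWAT of irisin mice it was at 3.71, 3.58 and 4.30 on chow and 2.60, 0.923 and 0.976 on HFD. Neither of these pairs of groups overlapped, whereas in eWAT of irisin mice 1.36, 1.65 and 1.70 on chow overlapped with 1.95, 1.31 and 4.26 on HFD. It rose by 1.05 ± 0.32 in eWAT of GFP mice (adjusted p = 0.0322) and fell by 1.22 ± 0.27 in iWAT of irisin mice (adjusted p = 0.0221). The far more abundant Adamts2 stood at 25.7 ± 3.91 FPKM (SD, n = 3) in eWAT GFP chow and 28.1 ± 0.252 in GFP HFD, and at 32.8 ± 3.11 in iWAT irisin chow and 27.7 ± 8.58 in irisin HFD. It was called in no diet comparison with all libraries, nor was Adamts3, but Adamts2 was at 0.57 ± 0.12 in eWAT of irisin mice without eWAT irisin HFD 2 (adjusted p = 0.00729).

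The proteases that cut aggrecan and versican also split. Adamts15 in iWAT was at 4.22, 3.88 and 3.33 FPKM in GFP chow, 2.04, 2.11 and 1.18 in GFP HFD, 5.13, 4.98 and 5.63 in irisin chow and 2.95, 2.42 and 1.69 in irisin HFD. It fell by 0.94 ± 0.21 in GFP mice (adjusted p = 0.0473) and fell by 1.03 ± 0.21 in irisin mice (adjusted p = 0.0171). Without iWAT GFP chow 3 the value in GFP mice was -1.02 ± 0.24 (adjusted p = 0.0502). Adamts9 was at 2.53, 1.76 and 2.10 in iWAT irisin chow and 4.04, 4.80 and 3.83 in irisin HFD, and rose by 0.85 ± 0.18 (adjusted p = 0.0196). It was the 1 member called higher on HFD in iWAT, where 9 of 27 in GFP mice and 8 in irisin mice had a positive difference. Adamts5, the most abundant ADAMTS gene, varied between libraries of a group, with 41.5, 53.7 and 10.03 in iWAT GFP chow and 34.8, 48.2 and 63.4 in GFP HFD. Its diet differences were 0.73 ± 0.58 and 0.56 ± 0.58 in iWAT and -0.02 ± 0.27 and 0.40 ± 0.27 in eWAT (GFP and irisin mice), none of them called, and the first was 0.00 ± 0.45 without iWAT GFP chow 3. Adamts1 and Adamts4, which also cut aggrecan, were called in no diet comparison in the fits with all libraries.

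2 ADAMTS genes of low level were lower on HFD in eWAT. Adamts16 was at 1.17, 0.949 and 0.656 FPKM in GFP chow and 0.223, 0.137 and 0.0818 in GFP HFD, and at 1.23, 0.971 and 1.07 in irisin chow and 0.477, 0.294 and 0.439 in irisin HFD. It fell by 1.13 ± 0.19 in GFP mice (adjusted p = 0.00244) and fell by 0.82 ± 0.19 in irisin mice (adjusted p = 0.0160). Adamts19 had 37, 55 and 42 reads in eWAT GFP chow and 6, 2 and 5 in GFP HFD, and 31, 35 and 15 in irisin chow and 17, 15 and 5 in irisin HFD. The GFP groups were far apart and the irisin groups overlapped. Adamts19 fell by 1.03 ± 0.20 in GFP mice (adjusted p = 0.00507) with a difference of -0.34 ± 0.20 in irisin mice (adjusted p = 0.279). Adamts6, Adamts7, Adamts10 and Adamts12 were tested and called in no diet comparison.

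The 4 inhibitors each had a pattern of their own. Timp1, the inhibitor most often seen to be induced in inflamed tissue, was at 4.53, 5.77 and 5.93 FPKM in eWAT GFP chow and 47.0, 20.2 and 47.5 in GFP HFD, and at 4.26, 3.65 and 9.22 in irisin chow and 24.7, 7.12 and 38.6 in irisin HFD. In iWAT it was at 4.76, 5.33 and 1.05 in GFP chow, 1.15, 4.65 and 2.46 in GFP HFD, 9.20, 8.72 and 8.97 in irisin chow and 2.14, 0.760 and 2.32 in irisin HFD. The 3 irisin chow libraries of iWAT agreed closely and lay above every other iWAT library. Timp1 rose by 2.62 ± 0.55 in eWAT of GFP mice (adjusted p = 0.00664) and fell by 2.17 ± 0.53 in iWAT of irisin mice (adjusted p = 0.0316). Its difference in eWAT of irisin mice was 1.76 ± 0.55 (adjusted p = 0.0504), or 2.45 ± 0.43 without eWAT irisin HFD 2 (adjusted p = 0.00254), and in iWAT of GFP mice -0.31 ± 0.53 (adjusted p = 0.789), or -0.92 ± 0.44 without iWAT GFP chow 3 (adjusted p = 0.313).

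Timp2, the most abundant of all 44 genes, was called lower on HFD in iWAT of irisin mice and in no other diet comparison. In iWAT it was at 369, 353 and 56.1 FPKM in GFP chow and 71.7, 115 and 80.9 in GFP HFD, and at 363, 526 and 356 in irisin chow and 131, 67.5 and 88.4 in irisin HFD. In eWAT it was at 289, 239.6 and 341 in GFP chow, 315, 271 and 257 in GFP HFD, 296, 263 and 348 in irisin chow and 342, 167 and 247 in irisin HFD. 5 of the 6 iWAT chow libraries were above 350 FPKM and all 6 iWAT HFD libraries under 132, while iWAT GFP chow 3, at 56.1, was the lowest of all 24. Timp2 fell by 2.14 ± 0.60 in iWAT of irisin mice (adjusted p = 0.0481), and the difference in GFP mice was -1.15 ± 0.60 (adjusted p = 0.323), or -2.04 ± 0.30 without iWAT GFP chow 3 (adjusted p = 0.0134). In eWAT the differences were -0.04 ± 0.24 in GFP mice and -0.31 ± 0.24 in irisin mice.

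Timp4, the inhibitor typical of heart and fat, went the other way from Timp1 in eWAT. It was at 57.5, 78.7 and 91.9 FPKM in GFP chow and 7.81, 11.5 and 7.65 in GFP HFD, and at 83.7, 61.7 and 68.5 in irisin chow and 18.4, 98.7 and 14.5 in irisin HFD. The GFP HFD libraries were all under 12 and the chow libraries all above 57, and eWAT irisin HFD 2 had the highest Timp4 of all libraries while the other irisin HFD libraries were low. Timp4 fell by 3.01 ± 0.56 in GFP mice (adjusted p = 0.00360). In irisin mice the difference was -1.23 ± 0.56 (adjusted p = 0.150), or -2.08 ± 0.23 without that library (adjusted p = 0.000216). In iWAT its differences were -0.38 ± 0.41 in GFP mice and 0.47 ± 0.41 in irisin mice. Timp3, which is bound to the matrix and inhibits ADAM and ADAMTS proteases as well, was at 16.5, 18.5 and 21.0 in eWAT GFP chow and 8.68, 12.4 and 11.4 in GFP HFD and fell by 0.76 ± 0.22 (adjusted p = 0.0271). Its differences were -0.22 ± 0.22 in eWAT of irisin mice (-0.47 ± 0.18 without eWAT irisin HFD 2), 0.00 ± 0.18 in iWAT of GFP mice and -0.12 ± 0.18 in iWAT of irisin mice.

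**Figure D4:**
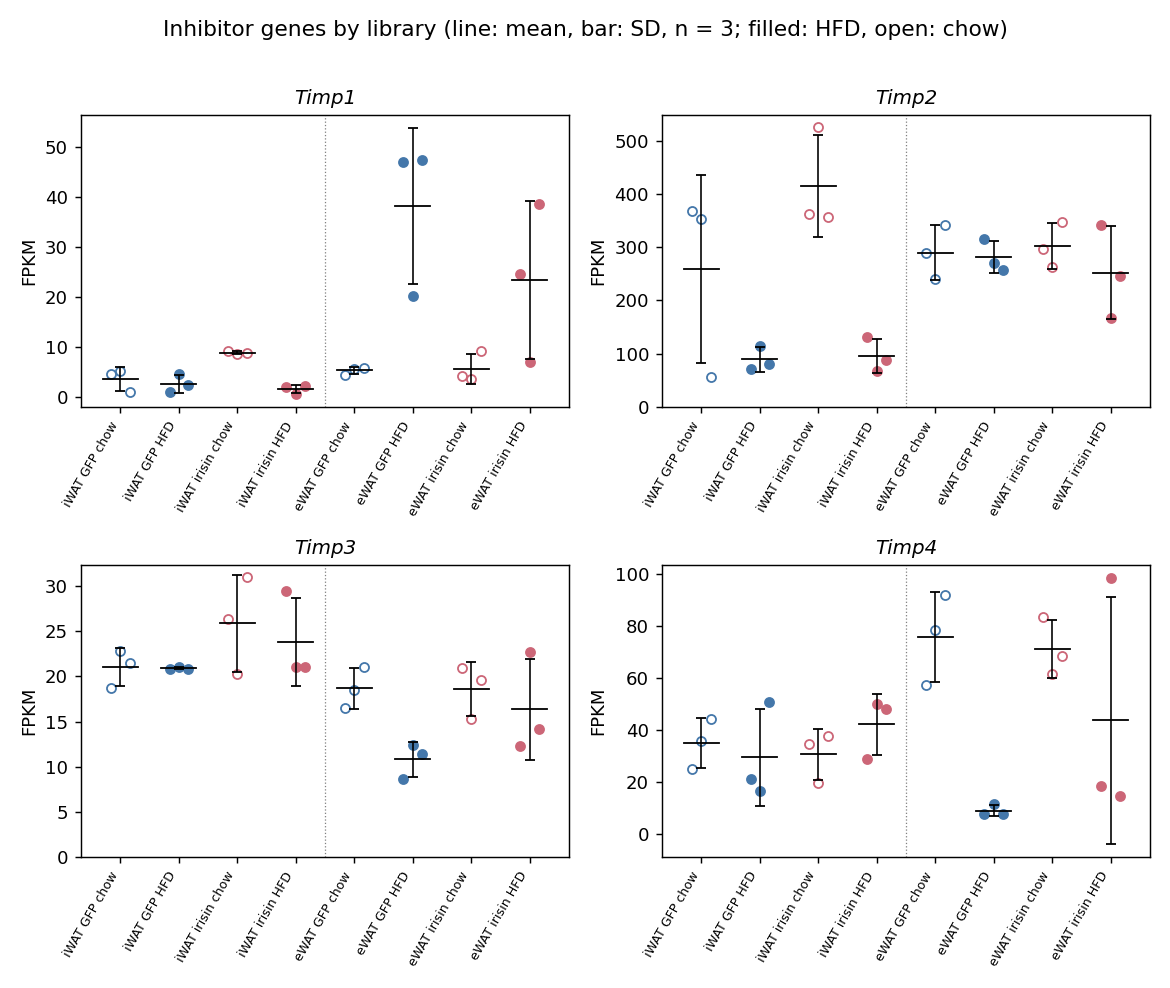
FPKM of the 4 Timp genes in each of the 24 libraries (points, open for chow and filled for HFD), with the mean (line) and SD (bar) of each group of 3; a dotted line separates iWAT from eWAT. In eWAT Timp1 is high and Timp4 low in the GFP HFD libraries, and in iWAT Timp2 is low in all HFD libraries and in 1 GFP chow library.

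Summed over each family, the Mmp genes stood at 108 ± 13.8 FPKM (SD, n = 3) in eWAT GFP chow and 224 ± 22.5 in GFP HFD, and at 116 ± 3.08 in irisin chow and 168 ± 58.1 in irisin HFD. In iWAT they stood at 264 ± 116 in GFP chow, 149 ± 50.8 in GFP HFD, 406 ± 65.2 in irisin chow and 159.8 ± 51.8 in irisin HFD. The Adamts sum varied little, with group means between 91.4 and 119 FPKM. The ratio of the Timp sum to the Mmp sum was 3.64 ± 0.582 in eWAT GFP chow and 3.43 ± 0.400 in irisin chow, 1.52 ± 0.0134 in eWAT GFP HFD and 2.16 ± 0.709 in irisin HFD, and 0.995 to 1.19 in the group means of iWAT. Every eWAT library was above every iWAT library in this ratio, and Timp2 alone made up 57.4% to 85.8% of the Timp sum in the group means. These sums add transcripts, not inhibitor or enzyme activity.

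Some marker lists of other cells also differed between the diets. In eWAT the 8 macrophage markers were all higher on HFD, with 8 of 8 called in GFP mice and 4 of 8 in irisin mice, and none was at 0 in any library. They summed to 1072 to 1486 FPKM in GFP chow, 3996 to 5245 in GFP HFD, 949 to 1073 in irisin chow and 1248 to 3779 in irisin HFD. The 8 mesothelium markers summed to 328 to 437 in eWAT GFP chow and 82.5 to 98.7 in GFP HFD, with 6 of 8 called lower, and to 251 to 412 in irisin chow and 22.0 to 204 in irisin HFD, with 2 of 8 called lower. In iWAT the 8 fibroblast and progenitor markers summed to 215 to 910 in GFP chow, 218 to 383 in GFP HFD, 790.0 to 1280 in irisin chow and 199 to 381 in irisin HFD. Of these, 3 of 8 were called lower in irisin mice and none in GFP mice. Other markers were lower on HFD in iWAT of irisin mice too: 8 of 9 tested skeletal muscle markers were called (94.4 to 4587 FPKM in sum on chow and 19.4 to 37.8 on HFD), 8 of 10 nerve and Schwann cell markers (162 to 318 and 89.7 to 138) and 1 of 8 macrophage markers (1444 to 2088 and 283 to 792). In eWAT the 8 fibroblast and progenitor markers went both ways, with 2 called higher and 3 lower in GFP mice. In irisin mice 2 were called higher and 2 lower. Their eWAT sums were 504 to 636 FPKM in GFP chow and 398 to 573 in GFP HFD. In irisin mice they were 500 to 641 on chow and 316 to 646 on HFD. In eWAT of GFP mice 4 of 6 adipocyte markers were called lower, from 5755 to 7396 FPKM in sum on chow and 3310.2 to 3762 on HFD. The iWAT library with the lowest Mmp2, Mmp14 and Timp2 among the chow libraries, GFP chow 3, was also the chow library with the lowest sums of fibroblast and macrophage markers (215 and 248). The part of these cells in the differences of the protease and inhibitor genes was not tested.

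The diet effect itself was compared between depots as a difference of differences, eWAT minus iWAT, fitted over all 24 libraries. In GFP mice 10 of 30 genes differed, against 4.31% of 17687 genes: 8 moved more upward in eWAT (background 2.98%) and 2 more downward (background 1.33%). In irisin mice 6 of 30 differed, against 3.73%, all 6 more upward in eWAT (background 2.71%) and none more downward (background 1.02%). 5 genes were called for both vectors, in the same direction, which is 50% of the GFP calls and 83.3% of the irisin calls: Mmp3, Mmp2, Timp1, Adamts14 and Adamts15. Of the 27 genes tested in both depots, 10 were lower in iWAT and higher in eWAT on HFD in each vector group, and 5 in GFP mice and 4 in irisin mice were the reverse. Neither the shared calls nor these directions were counted over all genes, so they are not read as particular to these families.

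For Mmp3 the diet effect was higher in eWAT by 4.65 ± 0.74 (log2, SE) in GFP mice (adjusted p = 0.00414) and by 5.10 ± 0.74 in irisin mice (adjusted p = 0.00438). For Mmp2 it was 2.88 ± 0.67 and 2.73 ± 0.67 (adjusted p = 0.0193 and 0.0324), and for Timp1 2.93 ± 0.82 and 3.93 ± 0.82 (adjusted p = 0.0472 and 0.0208). The 2 ADAMTS genes called for both vectors had smaller values, 1.67 ± 0.35 and 1.36 ± 0.35 for Adamts15 and 1.78 ± 0.43 and 1.64 ± 0.43 for Adamts14. Called in GFP mice alone were Mmp27 (2.72 ± 0.46), Mmp13 (2.59 ± 0.60), Mmp19 (1.58 ± 0.38), Adamts19 (-0.88 ± 0.24) and Timp4 (-2.63 ± 0.73), and in irisin mice alone Mmp14 (2.06 ± 0.54). Whether these differ between the vectors was not tested across depots. The counts depend on single libraries. In GFP mice the count was 3 without iWAT GFP chow 1 or eWAT GFP HFD 1, 4 without iWAT GFP chow 2, 5 without iWAT GFP HFD 3, eWAT GFP chow 2 or 3 or eWAT GFP HFD 3, and 6 without eWAT GFP chow 1. In irisin mice it was 10 without eWAT irisin HFD 2. It was 1 without iWAT irisin chow 2, iWAT irisin HFD 2, eWAT irisin chow 1 or 2 or eWAT irisin HFD 1 or 3, 2 without iWAT irisin chow 1 or 3, iWAT irisin HFD 3 or eWAT irisin chow 3, and 3 without eWAT GFP HFD 2. Without the 4 libraries rich in other tissues they were 3 and 2, and Mmp3 was called in both under every alternative run.

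**Figure D5:**
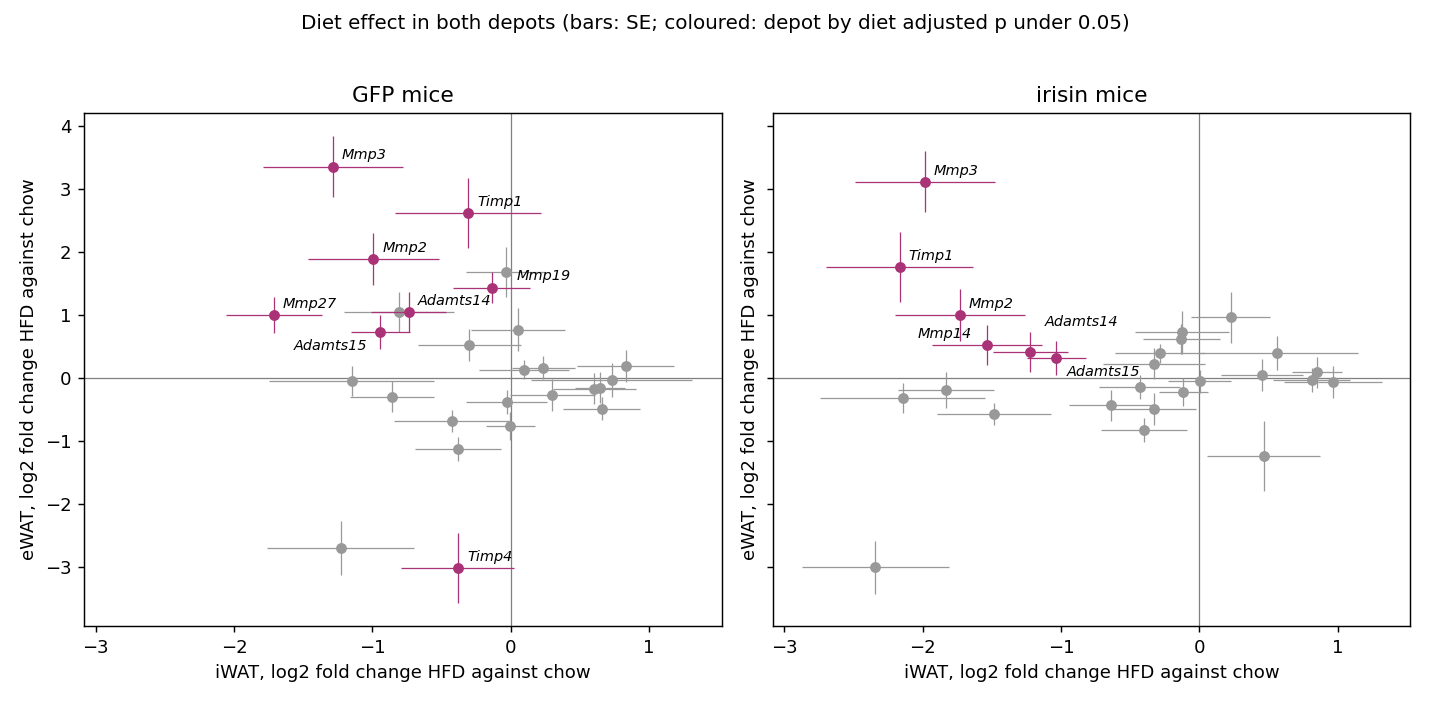
Diet effect (log2 fold change of FPKM + 0.5, HFD against chow) in iWAT (horizontal) and eWAT (vertical) for the 27 genes tested in both depots, GFP mice left and irisin mice right; bars are SE and coloured points have an adjusted p under 0.05 for the difference between depots. Mmp3, Mmp2 and Timp1 lie in the upper left part of both panels, and Timp4 lies low in the GFP panel.

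Between the depots on the same diet, the main differences changed from chow to HFD. On chow 6 of 30 genes differed in GFP mice, against 4.63% of all genes (3 higher in eWAT, background 3.13%, and 3 lower, background 1.5%). In irisin mice 3 differed, against 4.33%, all lower in eWAT (background 1.93%, and 2.4% for higher). These 3, Mmp3, Mmp2 and Mmp27, were lower in eWAT for both vectors. Mmp3 differed by -5.09 ± 0.53 in GFP mice and -6.24 ± 0.53 in irisin mice (adjusted p = 3.59e-06 and 2.66e-07), Mmp2 by -2.27 ± 0.47 and -3.03 ± 0.47 (adjusted p = 0.00577 and 0.000415), and Mmp27 by -2.10 ± 0.33 and -1.98 ± 0.33 (adjusted p = 0.000387 and 0.000779). All 3 calls held in every alternative for both vectors. The 3 genes higher in eWAT in GFP mice were Adamts19 (0.98 ± 0.17), Mmp23 (1.24 ± 0.33) and Adamts3 (0.82 ± 0.22), and the count was 3 without eWAT GFP chow 3. In irisin mice it was 7 without eWAT irisin HFD 2.

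On HFD the gap in Mmp3 was no longer called, at -0.44 ± 0.53 in GFP mice and -1.14 ± 0.53 in irisin mice, and Timp1 differed most. In GFP mice 11 of 30 genes differed, against 15.2% of all genes (7 higher in eWAT, background 9.68%, and 4 lower, background 5.56%). Timp1 was higher by 3.63 ± 0.58 (adjusted p = 0.000362), and Mmp13 (2.43 ± 0.42), Timp2 (1.67 ± 0.48), Mmp11 (1.56 ± 0.37), Mmp19 (1.5 ± 0.27), Adamts15 (1.27 ± 0.25) and Adamts14 (1.0 ± 0.31) were higher as well. The 4 that were lower in eWAT were Mmp15 (-1.09 ± 0.29), Adamts9 (-0.99 ± 0.22), Timp3 (-0.93 ± 0.21) and Mmp28 (-0.76 ± 0.25). 7 of the 11 passed in all alternatives, and the count was 7 without iWAT GFP HFD 3 or eWAT GFP HFD 1. In irisin mice 2 of 30 differed, against 10.3% (both higher in eWAT, background 6.75%, and none lower, background 3.54%): Timp1 by 3.22 ± 0.58 (adjusted p = 0.00227) and Mmp23 by 1.24 ± 0.33 (adjusted p = 0.0247). That count was 9 without eWAT irisin HFD 2, 4 without eWAT GFP chow 1 and 1 without eWAT irisin HFD 1.

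Irisin against GFP gave no called member. In all 4 comparisons within a depot and diet, 0 of 27 or 0 of 30 genes passed limma's test, against 0% of all genes in each, and this held in every alternative and every fit that left out a library. At an unadjusted p under 0.05 there were 0 members in iWAT on HFD, 2 in iWAT on chow, 7 in eWAT on HFD and 0 in eWAT on chow, beside 431, 688, 1510 and 845 of all genes, and limma's voom on reads called none either. In eWAT on HFD the smallest p were those of Mmp13, at -1.85 ± 0.48, and Mmp19, at -0.76 ± 0.24 (adjusted p = 0.533 for both). Mmp13 was lower in each irisin library than in each GFP library, but the nearest values almost met, at 1.84 FPKM in irisin HFD 3 and 1.86 in GFP HFD 2. Without eWAT irisin HFD 2 its difference was -1.28 ± 0.39. The 2 groups did not overlap for 5 of 30 members, beside 2184 of 16274 genes tested. Timp4 was higher in all 3 irisin HFD libraries than in the GFP HFD libraries, at 1.71 ± 0.56 (adjusted p = 0.533), and at 0.85 ± 0.23 without the same library (adjusted p = 1.0). The other inhibitors differed there by -0.88 ± 0.55 (Timp1), -0.21 ± 0.24 (Timp2) and 0.54 ± 0.22 (Timp3).

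In iWAT on chow the smallest p were those of Timp1, at 1.38 ± 0.53, and Mmp23, at 0.95 ± 0.41 (adjusted p = 0.919 for both). Without iWAT GFP chow 3 these were 0.77 ± 0.44 and 0.37 ± 0.26. There 22 of 27 members were higher in irisin mice, with a median of 0.28 against -0.01 over all genes, and without iWAT GFP chow 3 it was 19 of 27 with a median of 0.24. Some marker lists lay the same way. The 8 fibroblast, 8 macrophage, 10 nerve and 9 tested skeletal muscle markers were all higher in irisin mice, and none was called. Their medians were 0.73, 0.94, 1.10 and 5.88, with iWAT GFP chow 3 included. That library had fibroblast and macrophage sums of 215 and 248 FPKM. The other GFP chow libraries had fibroblast sums of 857 and 910 and macrophage sums of 1599 and 1657. These lay within the irisin chow ranges, 790.0 to 1280 and 1444 to 2088. None of the 6 adipocyte markers was higher (median -0.30). The part of these cells in the members' shift was not tested. In iWAT on HFD the smallest p were those of Adamts6, at -0.46 ± 0.23, and Timp4, at 0.64 ± 0.41 (adjusted p = 0.946 for both), and 17 of 27 were higher. In eWAT on chow they were those of Adamts19, at -0.44 ± 0.20, and Mmp27, at 0.48 ± 0.29 (adjusted p = 0.939 for both), and 17 of 30 were higher. The change of the diet effect with the vector was called for no member, against 0% of all genes in iWAT and 0.00614% in eWAT (1 gene). Its smallest p were those of Timp1 (-1.86 ± 0.75) and Mmp23 (-1.06 ± 0.59) in iWAT (adjusted p = 0.688) and of Mmp27 (-1.19 ± 0.41) and Mmp13 (-1.90 ± 0.68) in eWAT (adjusted p = 0.908), with 1 and 5 members at an unadjusted p under 0.05 beside 996 and 658 of all genes.

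3 lists of genes around these enzymes were described over the same fits. Of 30 regulators of matrix protease activity (activators, the plasminogen system, inhibitors other than TIMPs, ADAMTS-like proteins and a metallothionein), 7 of 26 tested were called higher and 6 lower on HFD in eWAT of GFP mice (all genes, 14.7% and 11.8%), with a median of 0.03. The smallest adjusted p belonged to Adamtsl4 (-1.35 ± 0.16), an ADAMTS-like matrix protein, the collagen-cutting cathepsin Ctsk (4.66 ± 0.59), the proprotein convertase Pcsk6 (-2.08 ± 0.31) and the protease inhibitor Tfpi2 (1.77 ± 0.29). In irisin mice 5 were higher and 2 lower (all genes, 9.47% and 7.93%), with Ctsk at 3.43 ± 0.59. In iWAT 2 of 24 were higher and 1 lower in GFP mice (all genes, 1.44% and 0.924%) and 2 higher and 6 lower in irisin mice (4.82% and 4.19%). The same shares of all genes apply to the lists that follow. Thbs1, a matrix glycoprotein, was higher for both vectors (1.97 ± 0.41 in GFP and 1.91 ± 0.41 in irisin mice), and lower was the metallothionein Mt1 (-1.54 ± 0.26 and -1.42 ± 0.26).

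Of 24 matrix substrates, 22 were tested. In eWAT 8 were higher and 3 lower on HFD in GFP mice (median 0.43), and 8 higher and 2 lower in irisin mice (median 0.55). Spp1, osteopontin, which MMP3 can cut, had the largest of these named values at 7.09 ± 0.83 and 4.80 ± 0.83, and the collagen gene Col6a3 was at 1.36 ± 0.19 and 1.12 ± 0.19. Spp1 is also among the markers of lipid-associated macrophages, 7 of 8 of which were called higher in each vector group of eWAT. In iWAT no substrate was called in GFP mice (median -0.27) and 3 were lower in irisin mice (median -0.63): Spp1 (-2.77 ± 0.47), the fibrillar collagen gene Col1a2 (-1.92 ± 0.50) and Dcn, decorin (-1.79 ± 0.47). Of 13 ADAM genes, whose products shed proteins from the cell surface, 11 were tested, and in eWAT 6 were higher and 1 lower in GFP mice and 5 higher and 1 lower in irisin mice. Adam8, a protease of leukocytes, was at 5.0 ± 0.60 and 3.85 ± 0.60, and Adam12 at 1.76 ± 0.22 and 1.47 ± 0.22. Adam33 was lower in all 4 diet comparisons, at -1.04 ± 0.12 and -0.96 ± 0.12 in eWAT and -1.21 ± 0.23 and -2.12 ± 0.23 in iWAT, and it was the 1 ADAM gene called in iWAT. None of the 3 lists had a called gene in any comparison of irisin with GFP.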

How the data were processed

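Per the labels' protocols, mRNA was selected by its poly-A tail. The submitters' processing notes name HISAT2 2.0.5 and featureCounts 1.5.0-p3, and the authors deposited FPKM values for 54532 genes. No build is named, and 43 of the 44 positions equal those of GENCODE M21 (GRCm38). All 44 genes were taken from the table by symbol, and 1 further gene of these families and the values of 1 gene of the regulator list are not reported here. Another 8 numeric columns name no sample and were not used. FPKM times gene length came in whole steps for 100% of values within 0.01, which gave the reads per gene and library. No library was a copy of another.

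Genes that reached 0.5 FPKM in 3 or more libraries of a fit were tested on log2(FPKM + 0.5) with limma 3.58.1 in R 4.3.3 (variance trend, 4 groups of a depot or all 8 groups in 1 fit, 16 comparisons). Fold changes are on that scale, which understates changes of low genes. Benjamini-Hochberg adjustment covered all genes of a fit, and a gene was called at an adjusted p under 0.05. An exact permutation test of 3 against 3 libraries cannot go below 0.1. The fits were tested on simulated data with 200 changed genes for 3 comparisons in GFP mice: diet in iWAT, diet in eWAT, and eWAT minus iWAT on chow. They recovered 40%, 56% and 66% of 2-fold changes and 86%, 93% and 91% of 4-fold changes. False calls were 4.55%, 8.02% and 4.27% of the calls, so many 2-fold changes would be missed. Named with values are the Timp genes, the 10 most abundant members, every called member (the 6 largest rises and falls where over 12 were called), the 2 members of smallest p where there were no calls, and up to 4 genes of a list; others, such as Mmp7, Mmp8, Mmp10 and Mmp25, were named after their values were seen. Members and lists were chosen with earlier results of these data known. Alternatives were pseudocounts of 1 and 0.1, no filter and a filter of 1 FPKM, upper quartile scaling, quantile normalization, a replicate block, voom on the recovered reads, leaving out the 4 libraries rich in other tissues, and leaving out each library.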

Additional observations from a re-analysis of the deposited data

Results flagged for a closer look

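For 11 of the genes the effect of the diet differed between the depots in 1 or both vector groups. This is by limma's test of the difference itself (adjusted p under 0.05 over 17687 genes). They were 10 of 30 tested genes in GFP mice, against 4.31% of all genes, and 6 of 30 in irisin mice, against 3.73%. The share of all genes called in either vector group was not computed. In GFP mice the difference, eWAT minus iWAT on the log2 scale, was 4.65 for Mmp3, 2.72 for Mmp27, 1.67 for Adamts15, 2.59 for Mmp13, 2.88 for Mmp2, 1.78 for Adamts14, 1.58 for Mmp19, -0.88 for Adamts19, 2.93 for Timp1 and -2.63 for Timp4. In irisin mice it was 5.10 for Mmp3, 3.93 for Timp1, 2.73 for Mmp2, 1.36 for Adamts15, 2.06 for Mmp14 and 1.64 for Adamts14. Mmp3 and Mmp2 had the largest positive values in GFP mice together with Timp1, and Timp1 and Mmp3 in irisin mice. The differences of Mmp3 (both vectors), Mmp27 and Adamts15 (GFP mice) were called in all 24 fits that left out a library, whereas Timp1 and Timp4 in GFP mice lost the call in 17 of 24, Adamts14 in irisin mice in 14 and Mmp14 in 13. The macrophage and mesothelium markers of eWAT and the stromal markers of iWAT moved with diet as well, as given above, and their part was not tested. Groups of 3 libraries are too small for a test of outlying values, so none was made.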

How the results depend on the processing

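No called value changed direction under any alternative. Single named genes kept their side of the threshold in 1826 refits and lost it in 331, and counts over the 3 lists moved by over 1.5 times in 145 refits and by less in 1079. The comparisons of irisin with GFP, the vector by diet differences included, had 0 called members in every one. Without a filter on low values the calls on HFD against chow were 0 in iWAT of GFP mice and 4 in iWAT of irisin mice, and 2 for the depot by diet difference in irisin mice; more genes were then tested. Quantile normalization gave 5 calls between depots in irisin mice on chow. Voom on the recovered reads gave 5 there, 4 on HFD, and 6 and 3 for the depot by diet difference in GFP and irisin mice. Without the 4 libraries rich in other tissues the calls were 0 and 4 in iWAT (GFP and irisin mice) and 3 and 2 for the depot by diet difference. The cause was not tested, and fewer samples also lower the power. Shares over all genes are not given for these refits, so the changed counts are not read as particular to these families. Leaving out 1 library at a time gave 0 to 4 calls in iWAT of GFP mice, 0 to 12 in iWAT of irisin mice, 10 to 17 in eWAT of GFP mice and 2 to 11 in eWAT of irisin mice. Between depots it gave 3 to 7 (GFP, chow), 7 to 13 (GFP, HFD), 3 to 7 (irisin, chow) and 1 to 9 (irisin, HFD), and for the depot by diet difference 3 to 13 (GFP) and 1 to 10 (irisin).

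The replicate block gave 2, 11, 16 and 5 calls for the diet in iWAT GFP, iWAT irisin, eWAT GFP and eWAT irisin mice, 8 and 6 for depot by diet and 4, 11, 4 and 2 between depots (GFP chow, GFP HFD, irisin chow, irisin HFD). Same-numbered libraries deviated together (correlation over 0.1) in 9 of 18 pairs in iWAT, 3 of 18 in eWAT and 2 of 12 between depots. For libraries of different number it was 10 of 36, 5 of 36 and 6 of 24. In iWAT the median correlation was 0.097 for same-numbered pairs and -0.053 for the others. Whether the numbers pair the samples or mark a batch is not settled by this check. The 14 untested members rest on few reads, and nothing is said of their response.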
